A study of Mus musculus with 57 samples.

Results

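Genes of the nephron progenitor program, 8 in number and named Six2, Cited1, Osr1, Eya1, Sall1, Uncx, Spock2 and Dpf3, were followed through 57 single cells of the mouse renal vesicle. They were taken by symbol from an expression table of 12087 gene rows, in which each of the 8 had 1 row. All cells came from Tg(Crym-EGFP)GF82Gsat mice at postnatal day 4, on a mixed background, in which the fluorescent protein EGFP is driven by the regulatory sequences of Crym. The cells were dissociated and sorted from 1 pool of 2 kidneys, captured singly on a microfluidic chip and sequenced on 1 lane. The labels give 1 group of cells, the sex as unknown for 56 cells and as both for 1 cell, and no untreated or mutant group. The cells therefore had no replicate pools, no p-value was computed, and every interval is an exact Clopper-Pearson 95% interval that covers the sampling of cells from this pool only.

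Nephrons arise from a cap of mesenchymal progenitors around each ureteric bud tip. Six2 and Cited1 mark the self-renewing cap, and both are switched off as cells are induced by Wnt signals, turn on Pax8 and Wnt4, and condense into the renal vesicle, where the nephron first becomes an epithelium. Wt1 is present in progenitors and becomes strongest in the proximal end of the vesicle, which later forms the podocytes. The genes examined here have separate roles in this program: Six2, Osr1, Sall1 and Uncx are transcription factors, Cited1 and Eya1 are transcriptional cofactors (Eya1 is also a phosphatase that partners factors of the Six2 family), Dpf3 is a histone-reading subunit of the BAF chromatin remodelling complex, and Spock2 is an extracellular matrix proteoglycan.

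The series covered these genes unevenly, from a gene found in nearly all nephron cells to one found in 2 cells. The 250 bases before the start of 3 of them are shown, Sall1 and Uncx because these were the members most often found together, and Six2 because it defines the cap. They are the RefSeq windows of GRCm38.p6, read 5′ to 3′ on the gene's strand, with capitals marking matches on either strand to CTTTGA (the core of TCF/LEF sites), GCGGGGG (a core of WT1 and EGR sites), TAATTA (a homeodomain core) or CCAAT.
Six2, chr17:85688255-85688504, minus strand: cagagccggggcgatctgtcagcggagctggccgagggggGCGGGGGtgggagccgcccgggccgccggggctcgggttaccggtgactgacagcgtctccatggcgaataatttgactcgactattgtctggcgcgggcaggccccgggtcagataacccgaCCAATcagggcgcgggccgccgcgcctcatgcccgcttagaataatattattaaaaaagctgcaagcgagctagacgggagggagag
Sall1, chr8:89044163-89044412, minus strand: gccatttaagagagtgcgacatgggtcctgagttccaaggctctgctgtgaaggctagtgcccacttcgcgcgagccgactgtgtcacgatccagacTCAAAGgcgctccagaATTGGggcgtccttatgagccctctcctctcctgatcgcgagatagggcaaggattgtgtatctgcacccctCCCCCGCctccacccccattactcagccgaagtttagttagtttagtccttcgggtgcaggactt
Uncx, chr5:139543648-139543897, plus strand: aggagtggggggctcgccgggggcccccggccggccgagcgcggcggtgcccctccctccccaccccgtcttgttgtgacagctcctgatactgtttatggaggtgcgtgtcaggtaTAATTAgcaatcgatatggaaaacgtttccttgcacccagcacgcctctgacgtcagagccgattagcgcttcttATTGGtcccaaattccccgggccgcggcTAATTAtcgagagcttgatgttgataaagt
The Sall1 window, the most upstream of 3 windows that RefSeq gives for it, held CTTTGA on the reverse strand 153 bases before the start, CCAAT on the reverse strand 137 bases before it and GCGGGGG on the reverse strand 65 bases before it. The Uncx window held TAATTA 133 and 30 bases before the start, and CCAAT on the reverse strand 58 bases before it. The Six2 window held GCGGGGG 210 bases and CCAAT 87 bases before the start, on the forward strand. Of 32851 windows of this length, CTTTGA was in 13.83%, GCGGGGG in 9.634%, TAATTA in 4.84% and CCAAT in 33.85%. The match that Sall1 and Uncx shared was thus CCAAT, the commonest of the motifs searched, which the Six2 window held as well. A match describes the letters of the window and is not evidence of binding. Of the 8 members, Cited1, Spock2 and Dpf3 also matched a window, and Osr1 and Eya1 were named only.

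Depth limited what could be called absent. Estimated reads per cell ranged from 0.47 M to 2.31 M, with a median of 1.48 M, and the number of genes detected per cell ranged from 2803 to 6495, with a median of 4303. A gene was called detected at RPKM 1 or more, where RPKM is the number of reads scaled by the length of the gene and by the mapped reads of the cell. In a cell of median depth this was about 3.14 reads for Six2 and about 7.79 reads for Sall1, by their longest transcripts. By this estimate 100% of the low values of Six2 and of Sall1 lay close to a whole read. For other genes with low values the share ran from 0% for Spock2 and Wnt4 to 50% for Eya1, so their reads are less certain. Genes above RPKM 3 in fewer than 2 cells have no row in the table, so every member had at least 2 such cells by construction.

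The sorted cells were not all nephron cells. In 7 cells (1, 13, 25, 35, 46, 53 and 58) Pax8 was below RPKM 5. Of these, 5 cells (1, 25, 35, 46 and 58) held the macrophage complement gene C1qb at RPKM 1589 to 2362. The other 2 (13 and 53) held the stromal receptor gene Pdgfra at RPKM 237 and 365. The remaining 50 cells had Pax8 at RPKM 10.7 to 1160. The 5 cells with high C1qb had a median of 3484 genes detected and an estimated 1.13 M reads, against 4340 genes and 1.51 M reads in the other 52 cells. C1qb itself was at RPKM 1 or more in 11 of those 52 cells (21.2%), with a highest value of 129. The part of such stray signal in the members' values was not tested. Each member was below RPKM 1 in all 5 cells with high C1qb, and 0 of 5 cells allows a share of up to 52.2%.

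**Figure D1:**
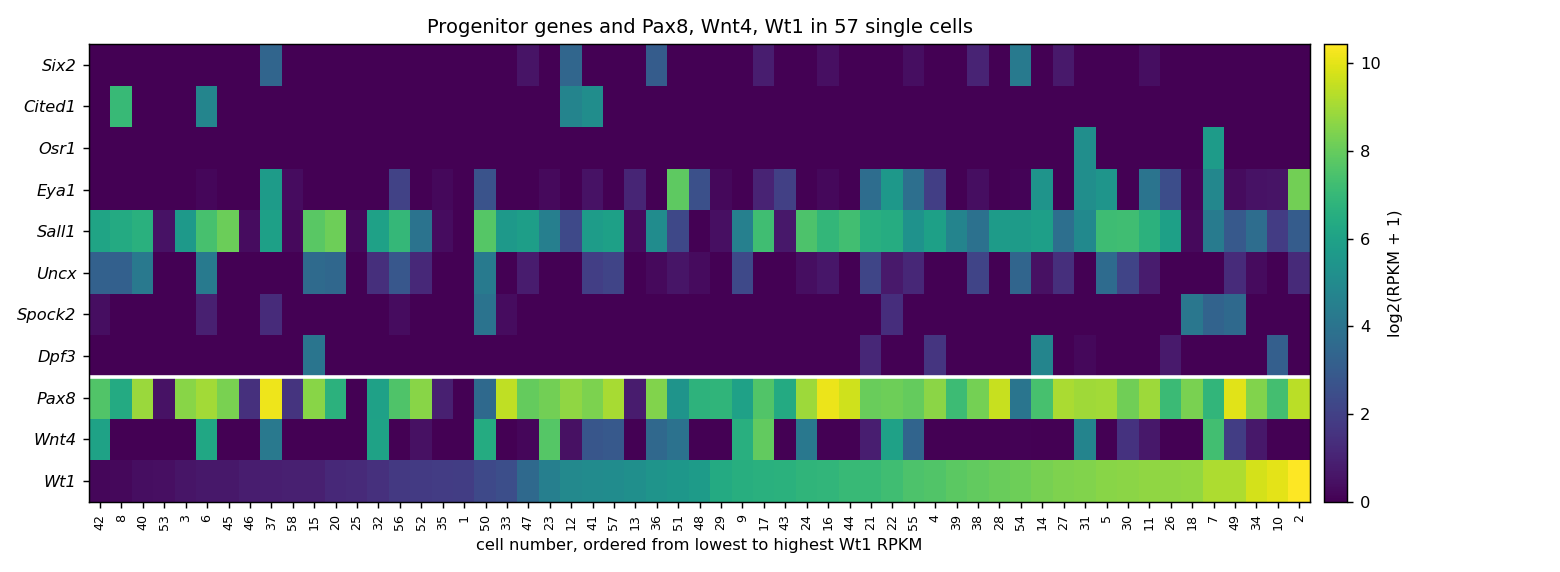
Level of the 8 progenitor genes (above the white line) and of Pax8, Wnt4 and Wt1 (below it) in each of 57 cells, as log2(RPKM + 1) on the colour scale, with cells ordered from the lowest to the highest Wt1. Sall1 fills most columns, Six2, Cited1 and Osr1 are at RPKM 1 or more in 5, 4 and 2 cells, and Eya1 is in 18 of the 46 cells with Wt1 at RPKM 1 or more.

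The genes that define the undifferentiated cap were rare. Six2, the homeodomain factor that holds progenitors in self-renewal (chr17:86083608-86087594, build mm9), was detected in 5 of 57 cells, 8.77% (2.91 to 19.3%). Its RPKM was 17.9 in cell 54, 9.83 in cell 12, 9.61 in cell 37, 7.25 in cell 36 and 1.04 in cell 38. These values corresponded to an estimated 69, 21, 24, 27 and 5 reads. A further 6 cells (11, 16, 17, 27, 47 and 55) had Six2 below RPKM 1 at an estimated 1 or 2 reads, and 46 cells had none. No cell reached RPKM 20.

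Cited1, the cofactor of the least induced cap cells (chrX:99442776-99447502, mm9), was detected in 4 of 57 cells, 7.02% (1.95 to 17.0%). Its RPKM was 130 in cell 8, 34.1 in cell 41, 26.1 in cell 6 and 25.4 in cell 12. The other 53 cells were at 0, with no value in between, so Cited1 was either well above the threshold or not seen. Osr1, the zinc finger factor of the intermediate mesoderm and early cap (chr12:9581248-9588306, mm9), was detected in 2 cells, 3.51% (0.43 to 12.1%). Its RPKM was 52.0 in cell 7 and 34.7 in cell 31, and 0 in the other 55 cells.

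Eya1 and Uncx were intermediate. Eya1, the phosphatase and cofactor of Six2 (chr1:14159039-14300280, mm9), was detected in 19 of 57 cells, 33.3% (21.4 to 47.1%). Among these 19 cells its RPKM ran from 1.04 in cell 17 through a median of 13.1 to 299 in cell 2. Cell 51 followed at RPKM 227 and cell 37 at 52.3, so the mean of 14.7 ± 50.0 (SD over 57 cells) rested largely on a pair of cells, and cell 2 alone held 35.6% of all Eya1 signal. Uncx, a paired-type homeodomain factor (chr5:140019852-140024132, mm9), was detected in 22 cells, 38.6% (26.0 to 52.4%), at low levels. Among these 22 cells its RPKM ran from 1.22 in cell 55 through a median of 3.75 to 18.3 in cell 50, and no cell reached 20. A further 13 cells had Eya1 and a further 10 had Uncx above 0 but below RPKM 1.

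Sall1, a zinc finger repressor needed for ureteric bud invasion and progenitor upkeep (chr8:91551143-91568061, mm9), was the common member. It was detected in 46 of 57 cells, 80.7% (68.1 to 89.95%), with a median RPKM of 49.6 over all cells and a highest value of 277 in cell 20. Of the 50 cells with Pax8 at RPKM 5 or more, 46 held it, 92.0% (80.8 to 97.8%). The 4 that did not were cells 18, 29, 43 and 48. In the 7 cells with low Pax8 its highest RPKM was 0.420.

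The matrix gene and the chromatin gene were again rare. Spock2 (chr10:59569005-59596661, mm9) was detected in 6 cells, 10.5% (3.96 to 21.5%). Its RPKM was 16.8 in cell 18, 14.6 in cell 50, 11.0 in cell 49, 9.12 in cell 7, 1.57 in cell 22 and 1.41 in cell 37. Dpf3 (chr12:84314738-84828658, mm9; its identifier in the table carries a suffix for 1 of several placements) was detected in 5 cells, 8.77% (2.91 to 19.3%). Its RPKM was 26.1 in cell 14, 15.4 in cell 15, 7.92 in cell 10, 2.05 in cell 4 and 1.23 in cell 21. Both lists of cells mix well-covered values with values near the threshold, and they share no cell.

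Of the 8 members, 1 (Sall1) was found in 29 cells or more, against 28.1% of all 12064 gene symbols. The 5 members Six2, Cited1, Osr1, Spock2 and Dpf3 were found in 10 cells or fewer, against 35.5% of all symbols. In order of cells, Sall1 stood apart from Uncx, whose interval did not overlap its own. The intervals of Uncx and Eya1 overlapped widely, as did those of Spock2, Six2, Dpf3, Cited1 and Osr1 among themselves.

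**Figure D2:**
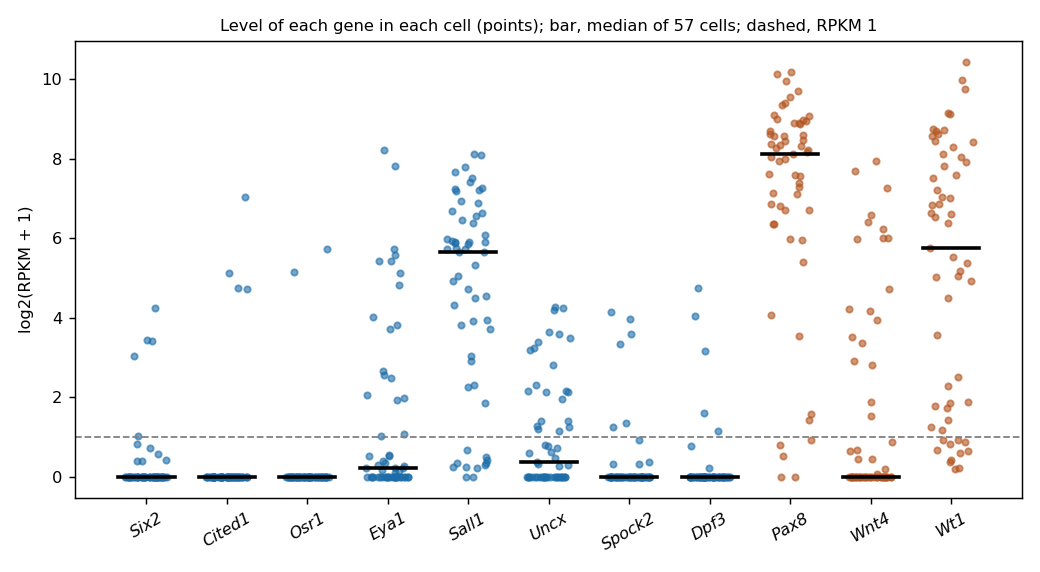
Level of each progenitor gene (blue) and of Pax8, Wnt4 and Wt1 (orange) as log2(RPKM + 1) in 57 cells, 1 point per cell, with the median as a black bar and RPKM 1 as a dashed line. Sall1 has a median RPKM of 49.6, while the medians of Six2, Cited1, Osr1, Spock2 and Dpf3 are 0.

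Whether the members met in 1 cell was asked next. At RPKM 1 or more, 7 cells held none of the 8, 15 held 1, 15 held 2, 16 held 3 and 4 held 4. No cell held 5 or more. Thus 35 of 57 cells, 61.4% (47.6 to 74.0%), held at least 2 members, and without the common Sall1, a count added after the data were seen, 20 cells, 35.1% (22.9 to 48.9%), held at least 2 of the other 7. At RPKM 5 or more, 23 cells, 40.4% (27.6 to 54.2%), held at least 2 of the 8. The number of members per cell followed the number of genes detected, with a Spearman rank correlation of 0.42 over 57 cells and 0.32 over the 50 cells with Pax8. The part of detection depth in these counts was not tested.

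No more than 2 of the 3 early cap genes met in any cell, and 2 met in 1 cell only. Six2, Cited1 or Osr1 was found in 10 cells (6, 7, 8, 12, 31, 36, 37, 38, 41 and 54), 17.5% (8.75 to 29.9%). Cell 12 was the single cell with 2 of them, 1.75% (0.04 to 9.39%), with Six2 at RPKM 9.83 and Cited1 at 25.4. Its Sall1 was low at RPKM 3.94, and Eya1 and Uncx were at 0. No cell held all 3. Cell 12 had Pax8 at RPKM 416, so the cell with the most complete early pair was not a cell without Pax8.

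The company of each rare gene differed from cell to cell. The other 3 Cited1 cells (6, 8 and 41) held Uncx at RPKM 18.0, 8.19 and 2.87 and Sall1 at RPKM 170, 82.5 and 53.0. None of the 4 Cited1 cells held Eya1. Both Osr1 cells held Eya1, at RPKM 27.5 in cell 7 and 34.2 in cell 31, and neither held Uncx. Of the 5 Six2 cells, all held Sall1, 2 (38 and 54) held Uncx and 1 (37) held Eya1.

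The 4 cells with 4 members were not alike. Cell 7 held Osr1, Eya1, Sall1 and Spock2, and cell 37 held Six2, Eya1, Sall1 and Spock2. Cell 50 held Eya1, Sall1, Uncx and Spock2, and cell 21 held Eya1, Sall1, Uncx and Dpf3. Eya1 and Sall1 were in all 4, and Cited1 was in none, and each of the other genes was in 1 to 3. The commonest sets were Sall1 alone in 11 cells and Sall1 with Uncx in 9 cells.

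**Figure D3:**
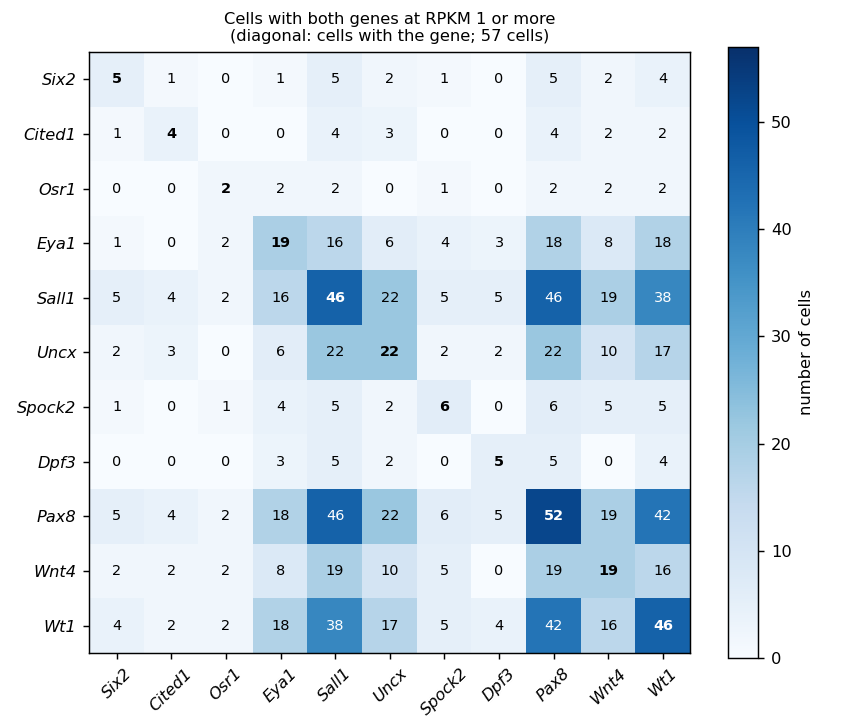
Number of cells, of 57, that hold both the row gene and the column gene at RPKM 1 or more, with the number that hold the gene on the diagonal. All 22 Uncx cells also held Sall1, and 9 of the 28 pairs of progenitor genes shared no cell. Each of these 9 included Cited1, Osr1 or Dpf3, found in 4, 2 and 5 cells.

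Among the 28 pairs of members, 9 shared no cell, 11 shared 1 to 3 cells and 2 shared 10 cells or more. The last 2 were Sall1 with Uncx (22 cells, 100% of the Uncx cells and 47.8% of the Sall1 cells) and Sall1 with Eya1 (16 cells, 84.2% of the Eya1 cells and 34.8% of the Sall1 cells). In level, rank correlation across 57 cells reached 0.25 in 3 pairs, Sall1 with Uncx (0.52), Eya1 with Dpf3 (0.27) and Osr1 with Eya1 (0.26). No pair was at -0.25 or less, and the median rank correlation over the 28 pairs was 0.04. These correlations share 1 pool, 1 lane and each cell's depth, and the pairs of rare genes are made mostly of shared zeros. Each of the 9 pairs without a shared cell included Cited1, Osr1 or Dpf3, found in 4, 2 and 5 cells. At such numbers an empty pair does not show that its genes avoid each other. The same counts over other pairs of genes were not computed.

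Sall1 and Uncx were related in level as well as in detection. In the 22 Uncx cells Sall1 ran from RPKM 6.54 through a median of 64.3 to 277, and in the other 35 cells from 0 through 25.5 to 272. Their rank correlation was 0.43 within the 50 cells with Pax8. Eya1 and Uncx, found in similar numbers of cells, met in 6 cells (2, 5, 21, 50, 55 and 56), 31.6% of the Eya1 cells and 27.3% of the Uncx cells, with a rank correlation of -0.02.

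Pax8, the paired-box factor of induced and epithelial nephron cells, was the first of 3 genes examined beside the members. It was detected in 52 of 57 cells, 91.2% (80.7 to 97.1%). Of the 109 values at which a member was detected in a cell, 1 lay in the 7 cells with Pax8 below RPKM 5, an Eya1 RPKM of 1.13 in cell 13, whose Pdgfra was at 237. Every detected value of Six2, Cited1, Osr1, Sall1, Uncx, Spock2 and Dpf3 was in a cell with Pax8 at RPKM 5 or more. Among the Six2 cells Pax8 was at RPKM 416 in cell 12, 347 in cell 36, 1160 in cell 37, 308 in cell 38 and 15.8 in cell 54. Cell 37 thus had the highest Pax8 of all 57 cells, and cell 54, with the highest Six2, had the second lowest of the 50 cells with Pax8.

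A share difference of 20 percentage points or more between cells with and without Pax8 was seen for 2 members, both higher with Pax8, against 23% of all genes, and for none in the lower direction, against 11.8% of all genes. They were Sall1, in 46 of 52 cells against 0 of 5, and Uncx, in 22 of 52 against 0 of 5. Of the 5 cells without Pax8 at RPKM 1, 3 had high C1qb (1, 25 and 35) and 2 had high Pdgfra (13 and 53), and in that comparison the absence of Pax8 and the other cell types cannot be told apart. In level, Sall1 was the 1 member with a rank correlation of 0.25 or more to Pax8 (0.39, against 5.44% of all genes), with none at -0.25 or less (4.8%). Its rank correlation was 0.20 without the cells with high C1qb and 0.11 within the 50 cells with Pax8.

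Wnt4, the ligand that drives the step from mesenchyme to epithelium, split the cells more evenly. It was detected in 19 cells, 33.3% (21.4 to 47.1%), all of which held Pax8. There were 3 members found 20 points or more often with Wnt4, against 7.63% of all genes, and none less often, against 2.21%. Sall1 was in 19 of 19 cells with Wnt4 and in 27 of 38 without. Uncx was in 10 of 19 cells, 52.6% (28.9 to 75.6%), against 12 of 38, 31.6% (17.5 to 48.7%). Spock2 was in 5 of 19 cells, 26.3% (9.15 to 51.2%), against 1 of 38, 2.63% (0.07 to 13.8%). The intervals with and without Wnt4 overlap for each of the 3, also for Sall1 at 82.4 to 100% and 54.1 to 84.6%. In the 50 cells with Pax8, Spock2 was the 1 member past 20 points, and without the 14 cells with the fewest genes none was. The Spock2 value rests on cells 22 and 37, at RPKM 1.57 and 1.41. With both genes at RPKM 5 or more, Spock2 was in 2 cells with Wnt4 and 2 without, and it passed 20 points at none of the other thresholds tried (above 0, 3, 5 and 20).

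Among the rarer members, both Osr1 cells held Wnt4, at RPKM 152 in cell 7 and 25.4 in cell 31. None of the 5 Dpf3 cells held Wnt4 at RPKM 1, the highest value being 0.828, so Dpf3 was in 0 of 19 cells with Wnt4 (up to 17.6%) and in 5 of 38 without, 13.2% (4.41 to 28.1%). Six2 was in 2 of 19 and 3 of 38 cells, Cited1 in 2 of 19 and 2 of 38, and Eya1 in 8 of 19 and 11 of 38. The rank correlation to Wnt4 was 0.33 for Spock2, 0.29 for Osr1 and 0.26 for Sall1, 3 members at 0.25 or more against 6.16% of all genes, with none at -0.25 or less (2.59%). That of Osr1 rests on 2 cells, and that of Sall1 was 0.10 within the 50 cells with Pax8. Without the 14 cells with the fewest genes all 3 were below 0.25, at 0.21 for Spock2, 0.17 for Osr1 and 0.17 for Sall1.

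**Figure D4:**
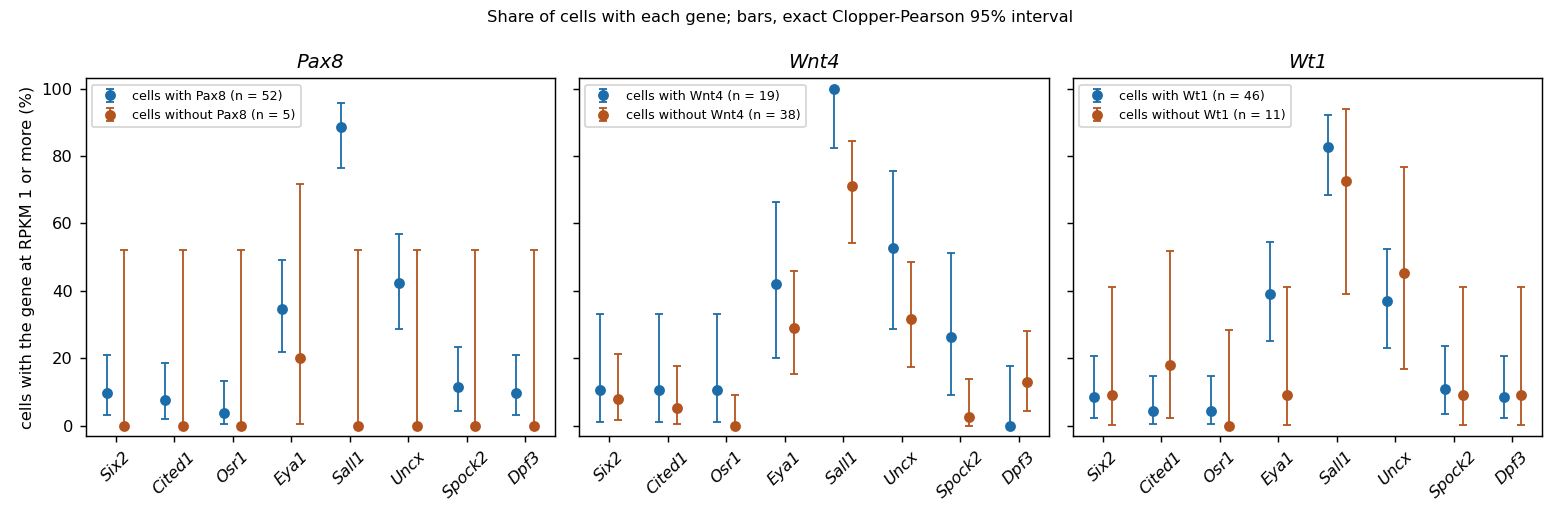
Percent of cells with each progenitor gene at RPKM 1 or more, in cells with (blue) and without (orange) Pax8, Wnt4 and Wt1, with exact Clopper-Pearson 95% intervals as bars. Sall1 is in 19 of 19 cells with Wnt4, and Eya1 is in 18 of 46 cells with Wt1 and in 1 of 11 without.

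Wt1, the zinc finger factor of progenitors and podocytes, was above 0 in all 57 cells and at RPKM 1 or more in 46, 80.7% (68.1 to 89.95%). Eya1 was in 18 of 46 cells with Wt1, 39.1% (25.1 to 54.6%), and in 1 of 11 without, 9.09% (0.23 to 41.3%). It was the 1 member past 20 points, against 8.68% of all genes in the higher direction, and none was past 20 points in the lower direction, against 5.26%. The single Eya1 cell without Wt1 was cell 37, which had Wt1 at RPKM 0.833. The 46 cells included 3 with high C1qb (1, 25 and 35) and 1 with high Pdgfra (13). Cells 46, 53 and 58, also low in Pax8, were among the 11. Without the cells with low Pax8 Eya1 still passed 20 points. With both genes at RPKM 5 or more, Eya1 was in 10 of 37 cells with Wt1 and in 2 without, and did not pass 20 points. Wt1 ran from RPKM 0.833 through a median of 149 to 1382 in the 19 Eya1 cells, and from 0.140 through 25.3 to 1020 in the other 38. The ranges overlap nearly throughout, and cell 2 had the highest value of both genes.

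The rank correlation between Eya1 and Wt1 was 0.47 over 57 cells, 0.44 within the 50 cells with Pax8 and 0.47 with the number of genes detected held constant. Dpf3 reached 0.26 and Cited1 -0.26. These were 2 members at 0.25 or more, against 5.42% of all genes, and 1 at -0.25 or less, against 4.3%. Dpf3 was above 0 in 7 cells and Cited1 in 4, and their Pearson correlations on log2(RPKM + 1) were 0.13 and -0.22. Dpf3 was detected in 4 of 46 cells with Wt1 and in 1 of 11 without. Within the 50 cells with Pax8, Sall1 (-0.38), Cited1 (-0.31) and Uncx (-0.27) ran against Wt1, while Eya1 ran with it. The share of all genes past -0.25 with Wt1 within these 50 cells was not computed. Among the Cited1 cells, Wt1 was at RPKM 0.167 in cell 8, 0.573 in cell 6, 29.2 in cell 12 and 31.4 in cell 41. Both Osr1 cells were high in Wt1, at RPKM 560 in cell 7 and 347 in cell 31.

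Pax8, Wnt4 and Wt1 were all detected in 16 cells. Of these 16 cells, Sall1 was in 16, Uncx in 8, Eya1 in 7, Spock2 in 4, Osr1 in 2, Six2 in 1, Cited1 in 1 and Dpf3 in 0. Another 26 cells held Pax8 and Wt1 but no Wnt4. Sall1 was in 22 of these 26 cells, Eya1 in 10, Uncx in 9 and Dpf3 in 4. Six2 was in 3 of them, Cited1 and Spock2 in 1 each, and Osr1 in 0. Each member but Dpf3 was thus found in at least 1 cell with all 3 genes, Six2 and Cited1 in 1 cell each. Dpf3 was in only 5 of 57 cells, so its 0 of 16 does not set it apart. Wt1 is also present in progenitors, so its detection does not by itself mark commitment.

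**Figure D5:**
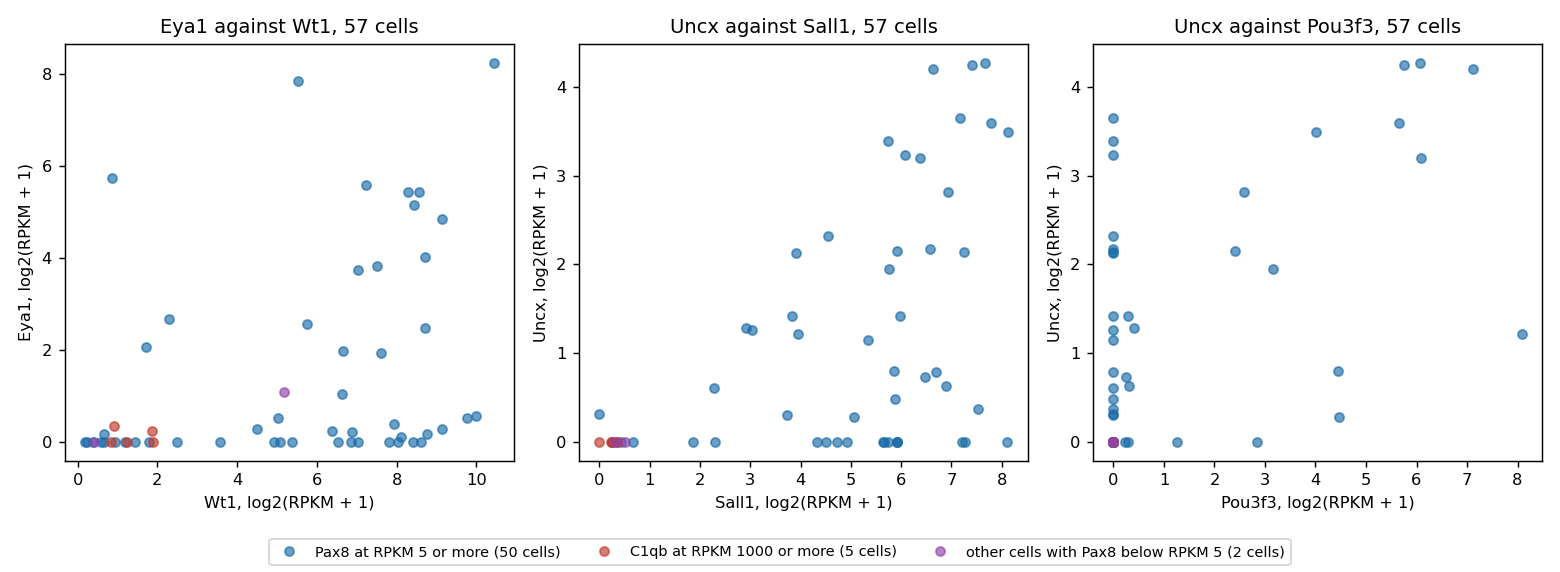
Eya1 against Wt1, Uncx against Sall1 and Uncx against Pou3f3, a distal vesicle gene, as log2(RPKM + 1) in 57 cells, with the 5 cells of high C1qb in red and the other 2 cells of low Pax8 in purple. Uncx is found where Sall1 is present (rank correlation 0.52), and Eya1 has a rank correlation of 0.47 with Wt1, although of its 3 highest cells cell 2 alone has Wt1 above the median, at RPKM 1382, with cell 51 at 45.3 and cell 37 at 0.833.

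The members differed in their relation to genes of the distal vesicle, a difference that was not tested. Of 7 distal vesicle genes with a row, 6 had a rank correlation of 0.25 or more with Uncx (against 7.86% of all genes), 5 with Cited1 (7.66%), 4 with Sall1 (7.42%) and none with Eya1 (5.01%). At -0.25 or less there were 2 with Eya1 (2.31%) and none with Uncx, Cited1 or Sall1. Within the 50 cells with Pax8 the counts at 0.25 or more were 6 (against 6.68% of all genes), 5 (8.81%), 3 (4.68%) and 0 (5.76%). There 4 of the 7 were at -0.25 or less with Eya1 (3.73%). The 4 distal genes found in most cells were Greb1 in 24, Emx2 in 23, Sox9 in 17 and Pou3f3 in 14. Pou3f3, a POU factor of the distal vesicle, had a rank correlation of 0.47 with Uncx, 0.45 with Sall1 and -0.28 with Eya1. It was in 10 of 22 Uncx cells and in 2 of 19 Eya1 cells. Sox9, a factor of the distal vesicle, was at RPKM 74.1, 177 and 205 in the Cited1 cells 6, 8 and 41, and at 0.238 in cell 12. Cited1 was above 0 in these 4 cells only. Its counts of correlated distal genes, and of the renal vesicle genes that follow, rest on them.

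Of 16 renal vesicle genes, 10 reached a rank correlation of 0.25 with Sall1 (against 7.42% of all genes), 10 with Uncx (7.86%), 4 with Cited1 (7.66%) and 2 with Eya1 (5.01%), and 5 were at -0.25 or less with Eya1 (2.31%). Within the 50 cells with Pax8 these counts were 8 (against 4.68% of all genes), 6 (6.68%), 4 (8.81%), 2 (5.76%) and 5 (3.73%). The 4 of these genes found in most cells were Jag1 in 56, Notch2 in 55, Ccnd1 in 55 and Sfrp2 in 54 of the 57 cells. None of the 16 was at -0.25 or less with Sall1 (5.45%), Uncx (3.18%) or Cited1 (0.481%). All 22 Uncx cells held Lhx1, the LIM homeodomain factor of the vesicle, as did 23 of the 35 cells without Uncx. Of 9 renal stroma genes, 1 was at -0.25 or less with Uncx (against 3.18% of all genes) and none reached 0.25 (7.86%). It was Meis1 (-0.33), which met Uncx in 1 cell. The 4 stroma genes found in most cells were Aldh1a2 in 35, Meis2 in 24, Meis1 in 17 and Col1a2 in 8. Meis1 was at RPKM 178 and 163 in the Osr1 cells 7 and 31. Aldh1a2, Meis2 and Col1a2 each met Osr1 in 1 cell, and Pdgfra, Pdgfrb, Col1a1, Col3a1 and Fibin in none. Cell 7 had Lhx1 at 0 and Pdgfra at 0.

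The authors' deposited table sets proximal cells against distal cells with a signed fold for 787 genes, positive where the proximal class was higher. In that table Eya1 stood at 11.4, rank 54 of 436 genes higher in the proximal class, and Uncx at -7.48, rank 96 of 351 genes higher in the distal class. Wt1 stood at 96.1, rank 3. The other 6 members were not among its genes. Of the 28 cells in it, 13 held Eya1 and 13 held Uncx by the full table, against 6 and 9 of the other 29. Six2 was in 1 of these 28 cells and in 4 of the other 29. All 7 cells with Pax8 below RPKM 5 were among the other 29. In those 7 cells Uncx and Six2 were at 0, and Eya1 was at RPKM 1 or more in 1. The same shares over all genes were not computed.

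The genes whose levels across 57 cells were most like those of each member found in 10 cells or more were listed over 7440 genes. For Eya1 these were Plekhg1 (rank correlation 0.50), Ccdc22 (0.49), Wt1 (0.47) and Plat (0.46). For Sall1 they were the Notch ligand gene Jag1 (0.59), Ptma (0.56), Top1 (0.55) and Sfrp2 (0.53), a secreted Wnt modulator. For Uncx they were Rif1 (0.55), Ptk2 (0.54), Nnat (0.52) and Acly (0.51). These lists changed without the 5 cells with high C1qb. Of each 4 genes, 2 stayed among the first 4 for Eya1 (Plekhg1 and Ccdc22, with Wt1 leaving), 1 for Sall1 (Jag1, at 0.48) and 1 for Uncx (Ptk2).

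Other nephron progenitor genes, a list of 32 with a row for 20, lay close to the table as a whole. Of these 20 genes, 5 were in 29 cells or more, against 28.1% of all symbols, and 7 were in 10 cells or fewer, against 35.5%. The 4 found in most cells were the adhesion gene Ncam1 in 53, Dach1 in 41, Hoxa10 in 40 and Pla2g7 in 32. Crym, whose regulatory sequences drive the sorted reporter, was at RPKM 1 or more in 7 of 57 cells. Of the 20 genes, 1 had a rank correlation of 0.25 or more with Pax8 (against 5.44% of all genes), 2 with Wnt4 (6.16%) and 2 with Wt1 (5.42%). At -0.25 or less there were 0 with Pax8 (4.8%), 1 with Wnt4 (2.59%) and 1 with Wt1 (4.3%). These counts are near those of all genes. With Eya1, 2 of the 20 reached 0.25 (Hoxd11 and Tmem100, against 5.01% of all genes) and 1 was at -0.25 or less (Fgf9, 2.31%). Bmp7 was the 1 gene to reach 0.25 with each of Sall1 (7.42%), Uncx (7.86%) and Cited1 (7.66%). Within the 50 cells with Pax8 it was Fat4 for Sall1 (4.68%) and Uncx (6.68%) and Bmp7 for Cited1 (8.81%). There Cdh11 was at -0.25 or less with Cited1 (0.688%). For the rarer Six2, Osr1, Spock2 and Dpf3 the shares of all genes were not computed. Past 0.25 over 57 cells were Six2 with Tmem100 (0.34), Dpf3 with Robo2 (0.38) and Eya4 (0.29), and Spock2 with Robo2 (-0.28).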

How the data were processed

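Single-cell RNA was amplified with the SMARTer kit on a Fluidigm C1 chip and made into Nextera XT libraries, without strand or molecular identifiers, per the labels' protocols. The authors deposited RPKM values of 12087 genes in 57 cells, not logged. A smaller table holds RPKM values of 787 genes in 28 cells and a signed fold, a score of the authors whose formula no source here gives. The RPKM values of the tables differ, so they were never mixed. TopHat 1.4.1, DESeq and mouse build mm9 are named per the submitters' processing notes, without their roles. The full table's header identifier over cell 15 differs from that cell's label by 2 swapped digits, and the cell number was used.

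The members and lists were chosen with earlier results of these data known. Of 23 symbols with several rows the row with the highest sum was kept, leaving 12064. Detection was RPKM 1 or more. Shares with and without Pax8, Wnt4 or Wt1 were counted past 20 points and Spearman rank correlation past 0.25, each beside the percent of all genes past the same value, with no test. All members and these 3 genes are named; of each other list whose counts are given, the 4 genes found in most cells and genes that a sentence on a cell turns on; of genes most like a member, the first 4 among genes found in 10 or more cells, without unnamed or ribosomal genes. Other genes named, such as those behind a small count, were chosen after their values were seen. Read depth was estimated from the steps of low values of 1018 single-transcript genes, and no doublet caller was run. Pax8 overlaps Gm13415 on the opposite strand, and unstranded reads cannot tell them apart. Python 3.11.15, numpy 2.4.6, pandas 2.3.3 and scipy 1.17.1 were used. Results that need 1 gene of the lists are not reported here. Alternatives varied the threshold, the cells and the measure of correlation.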

Additional observations from a re-analysis of the deposited data

How the results depend on the processing

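The cells holding each member depended on the threshold most where values were low. Above RPKM 0, Six2 was in 19.3% of cells, Eya1 in 56.1%, Uncx in 56.1% and Sall1 in 96.5%, and 84.2% held at least 2 members. At RPKM 5, Eya1 was in 21.1%, Uncx in 17.5%, and 40.4% held at least 2 members. At RPKM 20, Six2, Uncx and Spock2 were in 0 cells, Dpf3 in 1.75%, Eya1 in 14.0% and Sall1 in 63.2%, 15.8% held at least 2 members, and Six2 with Cited1 met in 0 cells. Without Sall1, an alternative chosen after seeing the data, 35.1% held at least 2 of 7. Sall1 was in 92.0% of cells without those with low Pax8, and in 90.7% without the 14 cells with the fewest genes.

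Members past 20 points with Wnt4 numbered 1 without the cells with high C1qb, 1 without those with low Pax8 and 0 without the 14 cells with the fewest genes. With Wt1 they numbered 0 at RPKM 20 and 3 without the cells with low Pax8 (Eya1 higher, Cited1 and Uncx lower). With Pax8 they numbered 4 above RPKM 0 and 1 at RPKM 20. At RPKM 5 the members past 20 points were Eya1 and Sall1 for Wnt4 and, lower, Uncx for Wt1, so those counts do not name the same genes. Correlations past 0.25 with Pax8, Wnt4 or Wt1 numbered 7 as reported and 4 without the 14 cells with the fewest genes. No value changed sign past its threshold among the alternatives run. Above RPKM 0 no comparison with Wt1 was possible, since all cells held it, nor any with Pax8 without the cells with low Pax8. No paired analysis was possible because the cells form 1 group. A count of 0 reads at these depths does not show that a gene was silent.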
